A study of Mus musculus with 16 samples.

Results

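The ribosome is the machine that translates mRNA, and its cytosolic form is built from ribosomal RNA and a fixed set of proteins, those of the small subunit (Rps genes) and those of the large subunit (Rpl genes). The acidic stalk of the large subunit (*Rplp0*, *Rplp1* and *Rplp2*) recruits elongation factors. Most ribosomal protein mRNAs begin with a run of pyrimidines, the 5′ terminal oligopyrimidine (TOP) motif, through which mTORC1 controls their translation as a group. Striated muscle is known for a paralog of its own, *Rpl3l*, which takes the place of *Rpl3* in part of its ribosomes.

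Cytosolic ribosomal protein genes were taken from the gene table by symbol, as names that begin with Rpl or Rps followed by a number, or with Rplp. Pseudogene names that contain -ps, the S6 kinase genes and *Rps3a1*, *Rps3a2* and *Rps3a3* were left out, and a gene had to reach 10 counts in at least 6 libraries. Of 55471 genes in the table, 89 had such a name and 85 reached these counts. Of the other 4, *Rpl10l* and *Rps12l1* had 0 counts in all libraries, and *Rpl6l* and *Rpl32l* had 88 and 106 counts summed over all mice. The 85 genes comprised 32 of the small subunit, 52 of the large subunit and *Rps19bp1*, which the name takes in although it encodes no ribosomal protein.

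Skeletal muscle of 16 male mice was profiled by bulk RNA-seq, with 1 library per mouse. The study compared 10 mice labelled *Npr1*+/-, heterozygous for a targeted allele of the gene of the natriuretic peptide receptor GCA, with 6 littermates labelled *Npr1*+/+, all of a line backcrossed to C57BL/6J, 12 weeks old at the start and fed an HFD for 12 weeks. The allele is carried in all tissues, and mice of both labels shared 4 cages (675 to 678). Replicate numbers name different animals, and the muscle taken is given in the labels only as skeletal muscle.

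The libraries held 15273472 to 59682677 counted fragments, and each tested ribosomal protein gene had 17 or more counts in every library. *Npr1* mRNA itself stood at 13.6 ± 3.87 CPM (counts corrected for library size, SD, n = 10) under the label *Npr1*+/-. Under the other it was at 12.2 ± 1.05 CPM (SD, n = 6), with a log2 fold change of 0.09 (SE 0.20, adjusted p = 1.0 in edgeR). The paper itself reports lower *Npr1* mRNA and GCA protein in skeletal muscle of *Npr1*+/- mice. Every direction below is between libraries as labelled. All 12 marker genes of muscle fibers were detected, with a summed level of 121824 to 190663 CPM. In 3 libraries labelled *Npr1*+/-, replicates 1, 8 and 9, a single row of ribosomal RNA (CT010467.1, chr17:39846353-39848827 of GRCm38, named after its values were seen) took 8.80%, 5.21% and 9.10% of the counts, against 0.0484% to 2.36% in the other 13.

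Start-site sequences are shown because a pyrimidine run at the start is the feature through which translation of TOP mRNAs is known to be controlled. RefSeq promoters of GRCm38.p6, which run from 250 bases before to 50 after a start, were matched to 64 of the 85 genes. A run of at least 8 pyrimidines between 10 bases before and 20 after a start was present in 24 of the 64 genes (37.5%) and in 13.0% of all 27025 genes with such a sequence. Capitals mark the longest pyrimidine run of each window. The first 4 below have a long run and the last 3, among them *Rpl3l* at the first of its 2 starts, do not. The starts are annotated ones, and where transcripts begin in this muscle was not measured. A window without a run therefore does not show that the mRNA lacks the motif. The windows lie at chr7:109519185-109519214 (*Rpl27a*, plus strand), chr4:86857348-86857377 (*Rps6*, minus), chr7:141447641-141447670 (*Rplp2*, plus), chr17:27635225-27635254 (*Rps10*, minus), chr17:24727816-24727845 (*Rpl3l*, plus), chrX:74270806-74270835 (*Rpl10*, plus) and chrX:102189372-102189401 (*Rps4x*, minus).
Rpl27a: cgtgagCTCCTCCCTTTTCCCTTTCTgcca
Rps6: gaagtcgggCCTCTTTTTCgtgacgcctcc
Rplp2: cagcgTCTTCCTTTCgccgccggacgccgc
Rps10: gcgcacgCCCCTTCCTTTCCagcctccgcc
Rpl3l: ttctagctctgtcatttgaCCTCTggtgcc
Rpl10: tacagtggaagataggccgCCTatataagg
Rps4x: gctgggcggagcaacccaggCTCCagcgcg

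Other short motifs were searched on both strands of the whole promoter window. CGGAAG, the core of the GABP site, was present in 42 of the 64 genes (65.6%, against 18.8% of all genes), and AANATGGC, a YY1 core, in 13 (20.3% against 6.96%). CTTTCC was present in 53.1% against 29.3%, GGGCGG, an SP1 core, in 59.4% against 38.2%, and the CACGTG E-box in 9.38% against 8.09%. TATAAA was present in 10.9% against 15.7%, and CANNTG, the general E-box that muscle regulators bind, in 53.1% against 75%. CACGTG is one form of CANNTG, and CTTTCC can lie within a pyrimidine run. These are matches of letters in 1 window per start, not shown sites.

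Ribosomal protein mRNAs were among the more abundant of the muscle. Levels of different genes are given per length, as CPM per kb of the exon length in the table, which counts long rare isoforms in full. The median of the 85 genes was 66.5 CPM per kb (quartiles 29.8 and 118), against 2.52 for all genes tested, and 83 of the 85 lay above the latter. Small-subunit genes had a median of 85.8 and large-subunit genes, stalk included, one of 59.0 CPM per kb.

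**Figure D1:**
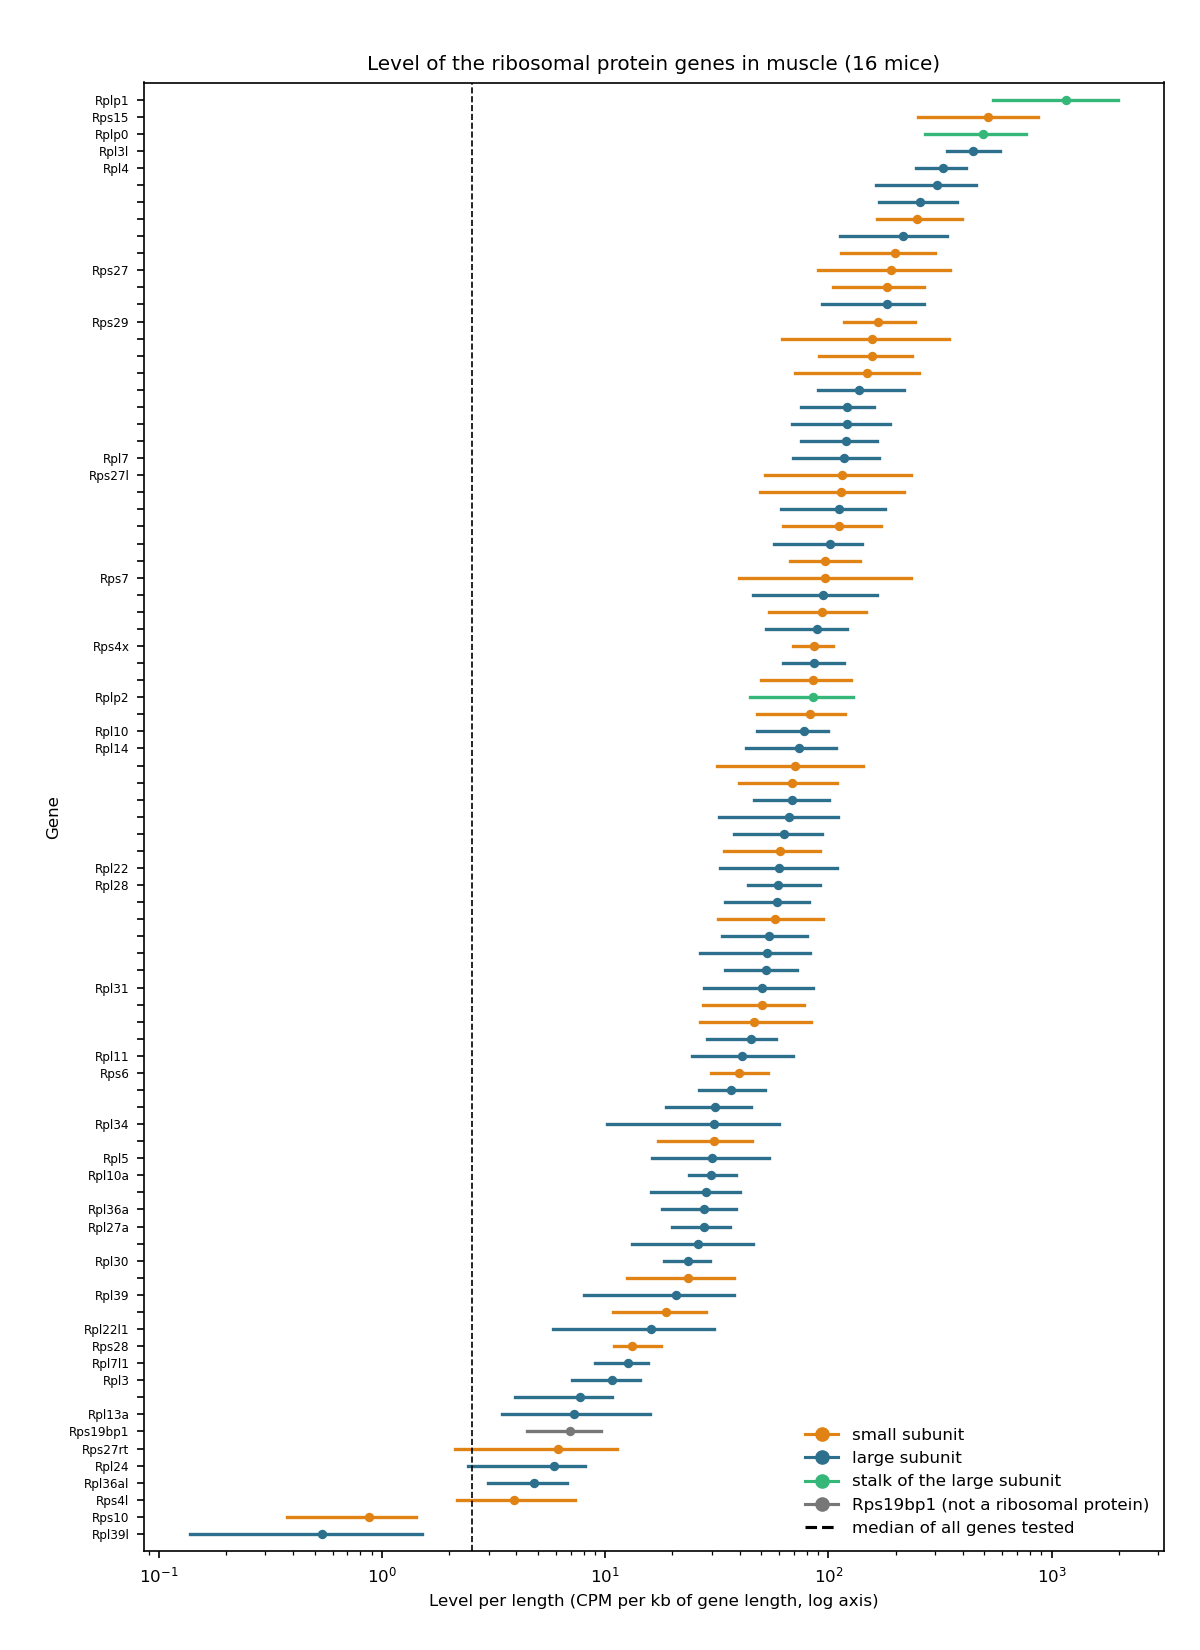
Level of each of the 85 genes in CPM per kb of gene length (log axis), as the mean (point) and the lowest and highest of 16 mice (line), coloured by subunit, with the genes named in the text labelled. *Rplp1* is highest at 1160 CPM per kb, and only *Rps10* and *Rpl39l* lie below the median of all genes tested (2.52, dashed).

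The stalk genes *Rplp1* and *Rplp0* stood first and in place 3, at 1160 ± 346 and 492 ± 127 CPM per kb (SD, n = 16). *Rps15*, a protein of the head of the small subunit, lay between them at 517 ± 147. Next came *Rpl3l* at 445 ± 78.9, and then *Rpl4*, which lines the exit tunnel, at 326 ± 45.6. The ranges over the mice of neighbours in this order overlapped, while those of *Rplp1* (547 to 1975) and *Rpl4* (246 to 413 CPM per kb) did not. *Rplp2*, the other stalk gene, was at 85.3 ± 25.1, below its partner *Rplp1* in every mouse.

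At the other end, *Rpl39l*, the paralog of *Rpl39* best known from testis, was at 0.536 ± 0.354 CPM per kb with 3 to 23 counts per library, and it was the 1 gene of the 85 that the filter for testing removed. *Rps10*, a protein every small subunit holds, was at 0.871 ± 0.285, *Rps4l* at 3.90 ± 1.29 and *Rpl36al* at 4.81 ± 1.10. In the GENCODE M21 gene models, 20.6% of the exon bases of *Rps10* are shared on the same strand with the readthrough gene *RPS10-NUDT3*. *Rpl24* (47.0% with *Gm28037*), *Rpl13a* (35.4% with *Gm45713*) and *Rpl36al* (24.5% with *Gm49383*) were the other 3 genes that shared 20% or more, and all 4 lay among the 8 lowest levels. Each of these 4 partner rows, named after their values were seen, had 0 counts in all 16 libraries. Whether fragments that fall on a pair were dropped by the counting was not tested, so the levels of these 4 genes may be understated.

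Reads of ribosomal protein genes can also fall on processed copies elsewhere in the genome. Of all 52-base windows (the read length) of a gene's transcripts, a median of 22.4% was found letter for letter in a transcript of another gene. The share was over 30% in 24 genes, highest for *Rps27rt* at 91.0%, which shares most with *Rps27*, and it was 0 in some genes, among them *Rpl3l*, *Rps19bp1* and *Rpl39l*. Rows of pseudogene names that contain -ps held 0.00784% of the counts on average. Copies under other names are not in this share, and the treatment of fragments that match several places is not given. It therefore sets no bound on the reads that copies took.

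All ribosomal protein genes together took 1.38% ± 0.258 of the counted fragments (SD, n = 16). In the mice labelled *Npr1*+/- the share was lowest at 0.805%, with a median of 1.38% and a highest value of 1.75%. In those labelled *Npr1*+/+ it was lowest at 1.39%, with a median of 1.45% and a highest value of 1.62%. The 6 mice labelled *Npr1*+/+ thus all lay within the range of the others. The means were 1.34% ± 0.316 (SD, n = 10) and 1.46% ± 0.0828 (SD, n = 6), which differ by less than the spread of the first group. The highest mouse had 2.18 times the share of the lowest. In bulk tissue, fewer cells of a type and less RNA per cell cannot be told apart.

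**Figure D2:**
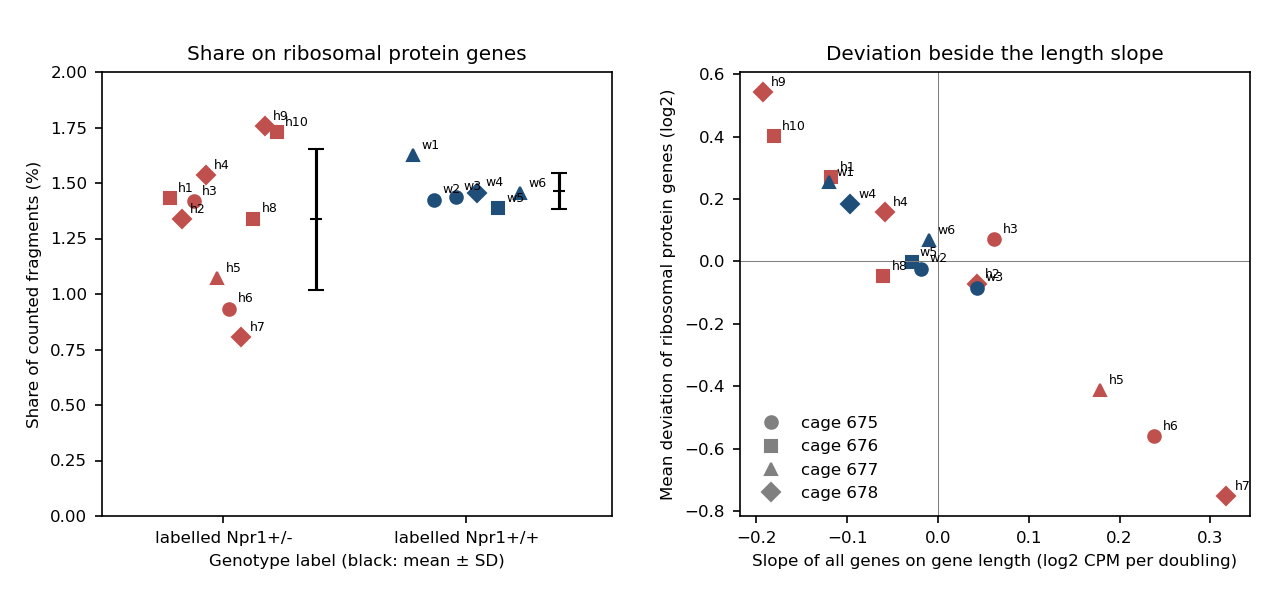
Left, share of counted fragments (%) on ribosomal protein genes in each mouse (h, labelled *Npr1*+/-; w, labelled *Npr1*+/+; marker shape, cage; black, mean ± SD). Right, mean deviation of the 84 tested genes (log2) against the slope of all genes on gene length (log2 CPM per doubling of length); the 3 lowest mice, h5, h6 and h7, have the 3 highest slopes, 0.18 to 0.32.

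The genes moved together from mouse to mouse. Replicates 5, 6 and 7 labelled *Npr1*+/- had 84, 83 and 84 of the 84 tested genes below the gene's own median over the 16 mice, and replicates 1, 9 and 10 of that label had only 4, 5 and 4. On average over the 84 genes, replicate 7 deviated by -0.75 on the log2 scale, replicate 6 by -0.56 and replicate 5 by -0.41, and replicates 9 and 10 by 0.54 and 0.40. The mice labelled *Npr1*+/+ stayed between -0.084 and 0.25. Small and large subunit genes shifted by nearly the same amount in each mouse, and their difference ran from -0.075 to 0.11 with an SD of 0.044 over the 16 mice.

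**Figure D3:**
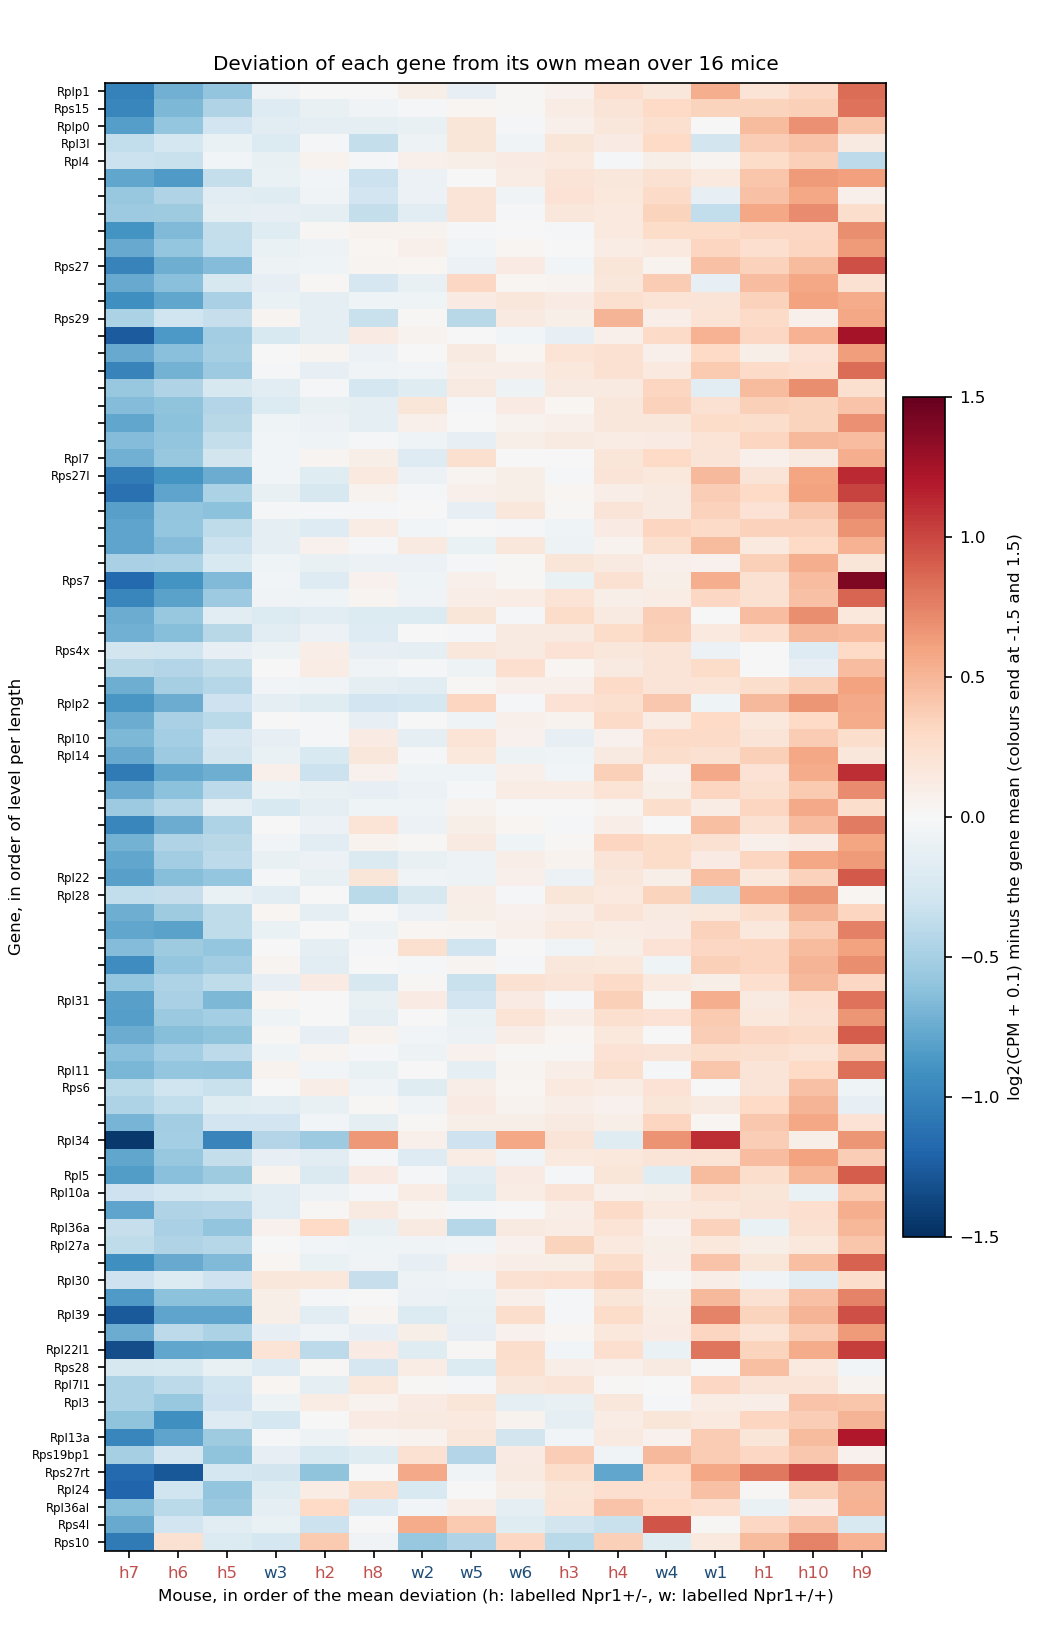
Each cell is the log2(CPM + 0.1) of 1 gene in 1 mouse minus the gene's mean over 16 mice, with the 84 tested genes in rows by level (those named in the text labelled) and the mice in columns by mean deviation. Nearly whole columns share a colour, blue in h7, h6 and h5 and red in h9 and h10, while *Rps4l* and *Rpl4* follow the columns least.

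Across the 16 mice, the median correlation between 2 ribosomal protein genes was 0.834 (Pearson) and 0.774 (Spearman), against 0.0453 and 0.0353 for the 4571 genes at or above the 10th percentile of their abundance. Without replicates 6 and 7 labelled *Npr1*+/-, the 2 mice farthest from the median, Pearson's value was 0.706 against 0.0166. These are descriptions, since the points share their libraries and their scaling. Of the 84 genes, 67 correlated at over 0.8 with the mean of the others, and 52 did without those 2 mice. *Rps4l*, a paralog of *Rps4x*, and *Rpl4* followed the others least (0.467 and 0.468), followed by *Rpl30* and *Rps28* (0.558 and 0.586).

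Gene length, fiber genes and markers of other cells were set beside these mice. Over all genes tested, the log2 deviation of a gene rose by 0.32, 0.24 and 0.18 per doubling of gene length in replicates 7, 6 and 5 labelled *Npr1*+/-, and fell by 0.19 and 0.18 in replicates 9 and 10. Ribosomal protein genes are short, with a median exon length of 1737 bases in the table against 4197 for all genes tested. With each library's linear relation to length taken out, a step added after the data were seen, the distance between the lowest and highest mouse was 0.71 on the log2 scale in place of 1.29, and replicates 7, 6 and 5 were still lowest at -0.39, -0.29 and -0.21. Some fiber genes shifted in the same mice, in both directions. The 12 fiber markers summed to 171273, 165490 and 155076 CPM in replicates 7, 6 and 5, within the 121824 to 190663 CPM of the other mice. *Myh4*, the myosin heavy chain of the fastest fibers, with 6016 exon bases, stood at 58769, 52542 and 29384 CPM in replicates 7, 6 and 5, against 4960 to 20979 CPM in the other 13 mice. The myosin heavy chain genes *Myh1* and *Myh2* were likewise highest in these 3 mice. The short fiber genes *Mylpf* (1062 bases) and *Pvalb* (1041 bases) were lowest in them, *Pvalb* at 10289, 11765 and 11605 CPM. *Acta1* and *Tnnt3*, also short at 1536 and 1583 bases, lay within the range of the other mice in them. These fiber genes were chosen for mention after their values were seen. Summed endothelial markers (5 of 5 detected) were highest in the same 3 mice, at 481, 443 and 313 CPM in replicates 7, 6 and 5, and lowest in replicates 9 and 10, at 154 and 164 CPM. Summed satellite cell markers (3 of 3 detected) were also highest in replicates 7, 6 and 5, at 30.9, 35.4 and 29.0 CPM. In the other mice they ran from 12.0 to 26.1 CPM, with 14.4 and 22.5 CPM in replicates 9 and 10. Other cell markers followed only in part. Summed markers of macrophages (6 of 6 detected) were 27.8, 49.2 and 30.4 CPM in replicates 7, 6 and 5, and 33.4 CPM in replicate 3 of that label, whose ribosomal protein genes deviated by 0.072, against 91.1 and 73.4 CPM in replicates 9 and 10. Those of fibroblasts and tendon (6 of 6 detected) were 631, 739 and 702 CPM in replicates 7, 6 and 5, 646 CPM in replicate 3, and 1493 and 1108 CPM in replicates 9 and 10. Those of erythroid cells (5 of 5 detected) were 88, 281 and 153 CPM in replicates 7, 6 and 5, and 510 and 416 CPM in replicates 9 and 10. Adipocyte markers (5 of 5 detected) summed to 278, 465 and 347 CPM in replicates 7, 6 and 5, and 350 CPM in replicate 3. They were at 835 and 1101 CPM in replicates 9 and 10. The part of length, of ribosomal RNA, of fiber genes and of these cells in the shared movement was not tested.

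Single genes varied over the mice by a median SD of 0.366 on the log2 scale, against 0.377 for all genes tested and 0.297 for the 4571 abundant genes. The steadiest were *Rps4x* (0.187), *Rps28* (0.199), *Rpl10a* (0.202) and *Rpl4* (0.208). The most variable were *Rps27rt* (0.696), a retrocopy of *Rps27* with only 17 to 104 counts, *Rpl34* (0.684), *Rpl22l1* (0.607) and *Rps7* (0.590). *Rps7*, which also binds the p53 regulator MDM2, ran from 79.7 CPM in replicate 7 to 470 CPM in replicate 9, both labelled *Npr1*+/-.

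The comparison of genotype labels asked whether ribosomal protein mRNA differed with the *Npr1* label once cage and body weight were corrected for. None of the 84 tested genes passed an adjusted p of 0.05 in the quasi-likelihood test of edgeR (Benjamini-Hochberg over 14331 genes), and 0% of all genes did. At an unadjusted p under 0.05, 1 gene was higher and 1 lower in the libraries labelled *Npr1*+/-, where 0.544% of all genes were higher and 0.509% lower. With DESeq2 and limma-voom, 0 of the 84 passed, where 6 and 0 of all 14331 genes did. No gene of the 84 had groups that did not overlap, and 1 gene of the 14331 had.

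The fold changes were small as a group. Of the 84 genes, 50 had a log2 fold change below 0 and 34 above 0 (59.5% below, against 51.6% of all genes), and 76 lay within 0.15 of 0. The median was -0.036, against -0.0060 for all genes tested, with a median SE of 0.22. In the small subunit 16 of 32 genes were below 0 and in the large subunit with the stalk 33 of 51. The split moved with the model used. With cage as the only covariate 82 genes were below 0, and with body weight as the only one 29. With the replicate block in place of cage 81 were (median -0.22). Replicates 7 to 10 exist only under the label *Npr1*+/-, so the block gives them no part in that comparison. The split also moved with the mice used. Without replicate 4 labelled *Npr1*+/+ 12 genes were below 0, and without replicate 5 of that label 77. Without replicates 5, 6 or 9 labelled *Npr1*+/- they were 32, 26 and 78. Without the 3 libraries rich in CT010467.1, an alternative added after the data were seen, 77 were below 0, with a median of -0.10.

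**Figure D4:**
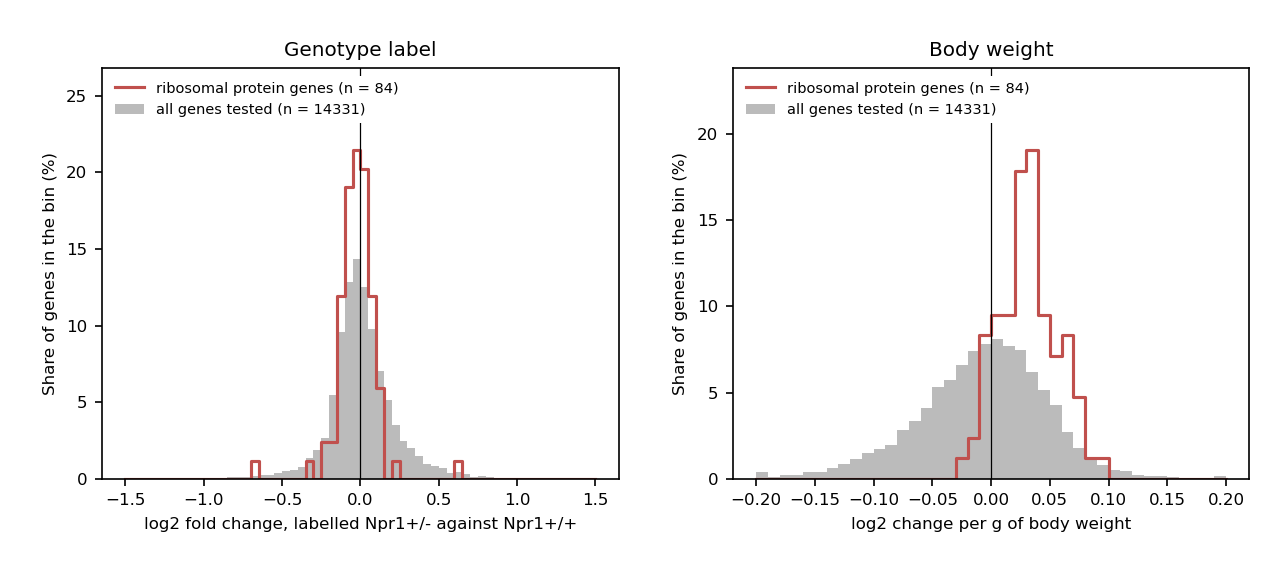
Share of genes (%) per bin of log2 fold change by genotype label (left, bins of 0.05) and of log2 change per g of body weight (right, bins of 0.01), for the 84 ribosomal protein genes (red) and all 14331 genes tested (grey). The red outline is centred near 0 on the left and lies mostly above 0 on the right, with 74 of 84 slopes positive; the outermost bins hold all values beyond the axis.

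*Rps10* (chr17:27630418-27636669 of GRCm38) had the smallest p among the genes with a higher value. In the mice labelled *Npr1*+/- it ran from 0.864 CPM over a median of 2.36 to 3.28 CPM, and in those labelled *Npr1*+/+ from 1.26 over 1.63 to 2.40 CPM. Its groups overlapped, and the lowest mouse of all was replicate 7 labelled *Npr1*+/-. The log2 fold change was 0.63 (SE 0.28, unadjusted p = 0.0395, adjusted p = 1.0 in edgeR), on 19 to 100 counts per library.

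*Rps4l* (chr6:148354656-148355498) had the smallest p of all 84 genes. It ran from 2.05 CPM over a median of 2.94 to 4.79 CPM in the mice labelled *Npr1*+/-, and from 3.09 over 4.11 to 6.89 CPM in those labelled *Npr1*+/+. The 2 ranges overlapped from 3.09 to 4.79 CPM. Its log2 fold change was -0.67 (SE 0.22, unadjusted p = 0.00893, adjusted p = 1.0 in edgeR), and it was -0.16 without replicate 4 labelled *Npr1*+/+, the mouse with the highest level. *Rps4x*, which encodes the main form of the protein, shares 40.2% of its 52-base windows with other genes and was at 139 ± 20.5 CPM (SD, n = 10) and 143 ± 14.9 CPM (SD, n = 6).

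The other genes named by smallest p had values within their spread. *Rpl5*, which carries 5S rRNA into the large subunit together with *Rpl11*, was at 118 ± 45.1 CPM (SD, n = 10) under the label *Npr1*+/- and 118 ± 21.3 CPM (SD, n = 6) under the other, with a log2 fold change of 0.21 (SE 0.26). *Rps29* and *Rpl31* had log2 fold changes of 0.13 (SE 0.21) and 0.10 (SE 0.24). *Rps19bp1*, which encodes a regulator of the deacetylase SIRT1, had one of -0.23 (SE 0.25) and *Rpl34* one of -0.34 (SE 0.38). All 5 had an adjusted p of 1.0 in edgeR. The sign of each of these 5 turned with other covariates or with a single mouse left out.

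The genes with known roles of their own lay at like levels under both labels. *Rplp0*, much used as a reference in quantitative PCR, was at 821 ± 262 CPM (SD, n = 10) and 806 ± 92.4 CPM (SD, n = 6), and yet it ran from 447 to 1274 CPM over the mice labelled *Npr1*+/-. *Rplp1* was at 564 ± 206 and 605 ± 109 CPM, and *Rplp2* at 177 ± 62.5 and 176 ± 33.1 CPM. *Rpl11* was at 109 ± 36.7 and 112 ± 15.5 CPM. *Rps6*, the substrate of S6 kinase, was at 62.8 ± 11.7 and 64.1 ± 5.87 CPM, with a narrower range of 47.2 to 85.2 CPM over all 16 mice. In each of these 5 genes the SD was larger among the mice labelled *Npr1*+/-, which include the 3 lowest and 2 highest libraries.

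Within cages the direction was not shared. The median difference of the 84 genes, labelled *Npr1*+/- minus labelled *Npr1*+/+ on the log2 scale, was -0.19 in cage 675 (2 mice against 2), 0.21 in cage 676 (3 against 1), -0.56 in cage 677 (1 against 2) and -0.17 in cage 678 (4 against 1). In these cages 74, 10, 81 and 73 of the 84 genes were below 0, where 50.5%, 54.8%, 48.7% and 55.3% of all genes were. The single mouse labelled *Npr1*+/- in cage 677 was replicate 5, and replicates 6 and 7 sat in cages 675 and 678. For cage itself, corrected for label and body weight, 0 of the 84 genes passed an adjusted p of 0.05, where 0.0279% of all genes did, and 0 passed an unadjusted p of 0.05, where 7.36% did. Without replicate 3 labelled *Npr1*+/-, 58 passed the unadjusted p, where 28.7% of all genes did, and 0 the adjusted one, where 6.08% did. Without replicates 7 or 8 of that label or replicate 6 labelled *Npr1*+/+, 3, 1 and 1 passed the unadjusted p, where 13.5%, 8.33% and 5.58% of all genes did. The smallest p for cage was that of *Rpl10* (unadjusted p = 0.0991, adjusted p = 0.662 in edgeR), a protein joined late to the large subunit. *Rpl14* and *Rps4l* came next, at unadjusted p of 0.136 and 0.160 in edgeR.

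Body weight was tested as the other covariate of the same fit, which averaged 43.6 ± 3.79 g (SD, n = 10) under the label *Npr1*+/- and 47.4 ± 4.69 g (SD, n = 6) under the other. Of the 84 genes, 74 had a slope above 0 (88.1%, against 47.3% of all genes), and the median was 0.032 on the log2 scale per g, against -0.0033 for all genes. None passed an adjusted p of 0.05 in edgeR, and 0% of all genes did (the smallest adjusted p among the 84 was 0.260). At an unadjusted p under 0.05, 4 genes rose with weight and 0 fell, that is 4.76% of the 84 where 4.74% of all genes rose and 12.3% fell.

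The 4 genes with the smallest p among rising slopes were *Rps10* with 0.087 per g (SE 0.037), *Rpl31* with 0.070 (SE 0.030), *Rpl22l1* with 0.090 (SE 0.041) and *Rpl5* with 0.071 (SE 0.032), with adjusted p of 0.260 to 0.279 in edgeR. Among the 10 genes with a slope below 0, those with the smallest p were *Rps4l* with -0.024 (SE 0.031), *Rpl3l* with -0.015 (SE 0.023), *Rpl28* with -0.016 (SE 0.026) and *Rps4x* with -0.0082 (SE 0.019).

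The result for weight rested on the model and on single mice. With the replicate block in place of cage, 8 of the 84 slopes were above 0, with a median of -0.016 per g. In that block, replicates 7 to 10 labelled *Npr1*+/- have no counterpart and do not bear on the slopes. Without replicate 3 labelled *Npr1*+/- (40.1 g), 34 of the 84 genes passed an adjusted p of 0.05 in edgeR, all of them rising, with a median slope of 0.078 per g. At an unadjusted p under 0.05, 60 genes rose in that fit, where 16.6% of all genes did. Against the 4 with all mice, 2 rose without replicates 4, 9 or 10 and 0 without replicates 5 or 7 of that label, and 1, 7, 1 and 0 rose without replicates 1, 3, 4 and 5 labelled *Npr1*+/+, where 1.99% to 6.95% of all genes rose. Without replicate 3 labelled *Npr1*+/-, 22.1% of all 14284 genes tested passed in either direction, against 40.5% of the ribosomal protein genes. Without replicate 7 labelled *Npr1*+/-, the lightest mouse at 36.5 g and the lowest in ribosomal protein mRNA, the median slope was 0.0073 with 57 slopes above 0, and none passed. With the gene length correction 61 slopes were above 0 and the median was 0.016.

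Paralogs differ in where they are made, and the table allowed 8 pairs to be set side by side within each library. *Rpl3l* (chr17:24727820-24736143), restricted to heart and skeletal muscle, was 41.4 times as abundant per length as *Rpl3* (chr15:80077791-80091868), at 445 ± 78.9 against 10.8 ± 2.0 CPM per kb (SD, n = 16). It made up 97.6% ± 0.397 of the pair, and between 96.9% and 98.1% in every mouse. Both values rest on exon lengths in the table of 1643 bases for *Rpl3l* and 3175 for *Rpl3*, and without a correction for length *Rpl3l* was 21.4 times as abundant in CPM and 95.5% of the pair. In CPM, *Rpl3l* ran from 558 over a median of 750 to 968 in the mice labelled *Npr1*+/-, and from 595 over 689 to 883 in those labelled *Npr1*+/+. *Rpl3* ran from 22.6 over 35.4 to 45.3 CPM and from 30.6 over 34.8 to 38.1 CPM. The groups overlapped for both genes, and *Rpl3* came from 477 to 1642 counts per library.

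The log2 ratio of *Rpl3l* to *Rpl3* counts, which does not depend on the scaling of a library, came to 4.46 ± 0.250 (SD, n = 10) under the label *Npr1*+/- and 4.37 ± 0.242 (SD, n = 6) under the other. The difference of 0.087 was smaller than either SD (two-sided exact permutation test over 8008 splits, p = 0.50). With labels permuted only within cages the exact p was 0.508.

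**Figure D5:**
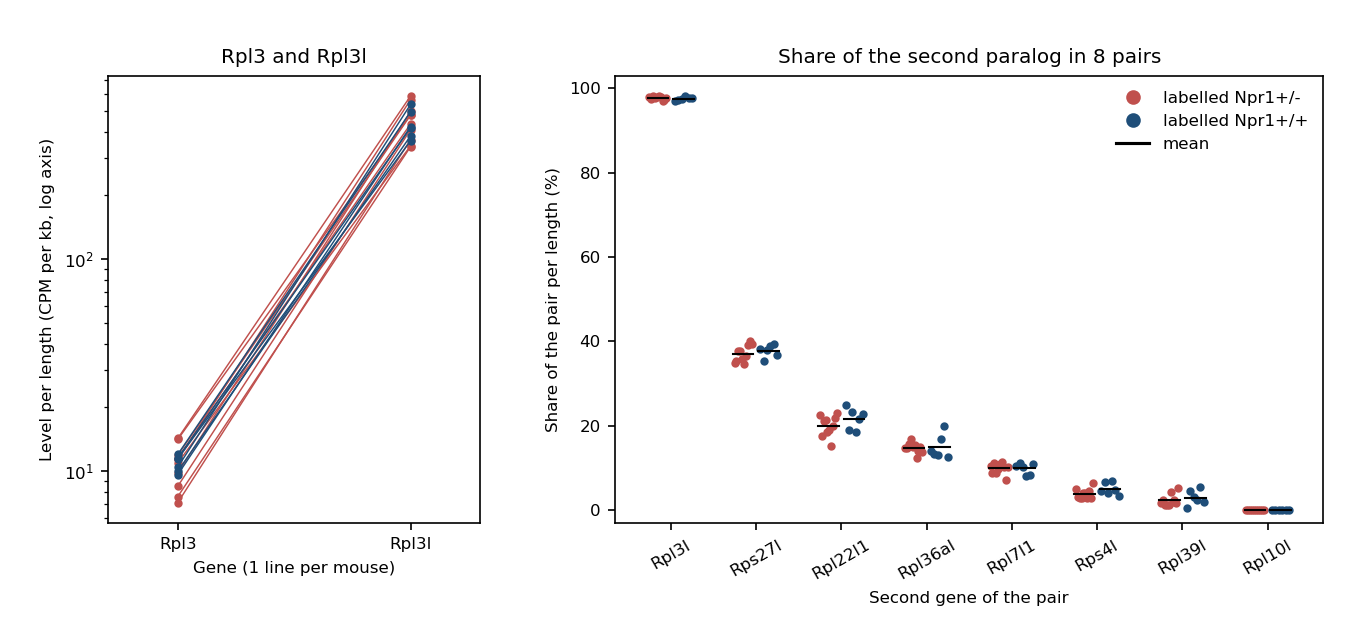
Left, level per length (CPM per kb, log axis) of *Rpl3* and *Rpl3l*, with 1 line per mouse. Right, share of the second paralog in the pair per length (%) in each mouse (points, red labelled *Npr1*+/-, blue labelled *Npr1*+/+; black lines, means) for 8 pairs; *Rpl3l* is at 96.9% or more in all mice, *Rps27l* between 34.6% and 40.03%, and *Rpl10l* has no counts.

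In the other pairs the better known gene was ahead in every mouse. *Rps27l*, a p53-responsive copy of *Rps27*, made up 37.4% ± 1.77 of its pair per length (SD, n = 16), and *Rpl22l1* 20.7% ± 2.53 of its pair with *Rpl22*. *Rpl36al* made up 14.8% ± 1.91, with the overlap named above, and *Rpl7l1*, which acts in ribosome assembly, 9.91% ± 1.27 of its pair with *Rpl7*. *Rps4l* held 4.35% ± 1.35 and *Rpl39l* 2.61% ± 1.49. *Rpl10l*, the copy of *Rpl10* used in male germ cells, had 0 counts in all 16 libraries. By label the mean shares were 20.03% ± 2.47 and 21.7% ± 2.48 for *Rpl22l1*, 37.1% ± 1.97 and 37.8% ± 1.45 for *Rps27l*, and 3.92% ± 1.17 and 5.07% ± 1.43 for *Rps4l*, each pair of values with overlapping ranges. *Rpl22l1* ran from 11.6 to 60.9 CPM over the mice labelled *Npr1*+/-, from the lowest in replicate 7 to the highest in replicate 9.

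Genes that act around the ribosome were read from lists fixed by name. By genotype label, of 12 genes of translation elongation and other TOP mRNAs 4 were above and 8 below 0, and of 14 eIF3 subunits, the initiation factor that binds the small subunit, 4 were above and 10 below. Of 45 genes of ribosome biogenesis, from RNA polymerase I to assembly factors, 16 were above and 29 below, and of 17 genes of mTORC1, its regulators and targets, and other regulators of ribosomal protein mRNA (the mTORC1 list) 9 were above and 8 below. No gene of these 4 lists passed an adjusted or an unadjusted p of 0.05 for the label in edgeR. The medians lay between -0.083 for the elongation list and 0.011 for the mTORC1 list, against -0.0060 for all genes tested.

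With body weight, slopes were above 0 in 2 of 12 elongation genes, 7 of 14 eIF3 subunits, 22 of 45 biogenesis genes and 5 of 17 genes of the mTORC1 list. At an unadjusted p under 0.05, 2 elongation genes, 4 eIF3 subunits, 9 biogenesis genes and 5 genes of the mTORC1 list fell with weight and 1 biogenesis gene rose, where 12.3% of all genes fell and 4.74% rose, and none of them passed an adjusted p of 0.05. *Larp1*, which binds TOP mRNAs, had a slope of -0.14 per g (unadjusted p = 0.00587 in edgeR), and *Mtor* one of -0.10 (unadjusted p = 0.0410 in edgeR). Both were chosen for mention after their values were seen. The difference between the lists was not tested.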

How the data were processed

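The authors purified poly-A mRNA, sequenced 52-base read pairs, mapped them to GRCm38 with STAR 2.7.2b and counted fragments with both ends aligned on GENCODE M24 genes with featureCounts (1.6.4 in the submitters' notes). The deposited values are raw counts per gene, with gene lengths. The kit differs between the sources, TruSeq Stranded in the paper and Universal Plus in the labels, so the strand setting, like the treatment of fragments shared by genes, is not given in the sources used here. 

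Symbols came from GENCODE M21. In R 4.3.3, edgeR 4.0.16 kept genes by filterByExpr, scaled them by TMM and tested label, body weight and cage in 1 fit (glmQLFit, robust = TRUE, legacy = TRUE) with Benjamini-Hochberg adjustment over 14331 genes and a threshold of 0.05, with cage and body weight as covariates as in the paper. CPM uses TMM library sizes, and log2 CPM a prior count of 2. DESeq2 1.42.0 and limma 3.58.1 were alternatives. On simulated counts of 14174 genes for the label, 47 of 99 genes changed 2-fold, 95 of 98 changed 4-fold and 5 of 13977 unchanged genes were called. P-values measure the spread between mice, and depth covers counting error only.

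The members and gene lists were chosen with earlier results of these data known. Named are genes of set roles, the 4 members of smallest p per direction for label and weight, the 4 for cage, and the 4 of highest and lowest level and SD, and some genes that these rules or the lists take in are not reported here. The alternatives were other covariates, scalings, filters, tools, a thinning, a length correction, the replicate block and each mouse left out.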

Additional observations from a re-analysis of the deposited data

Results flagged for a closer look

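Of 74 groups of 6 or 10 mice tested for a sample far from the others, 8 were flagged, where chance flags about 1 in 20 (3.7 groups). The groups reuse the same mice and the genes moved together, so flags are not independent and no excess can be read from these numbers. All 8 lay among the mice labelled *Npr1*+/+, and no explanation was tested.

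Replicate 1 was the highest of that label for the share of counts on ribosomal protein genes, at 1.62% against 1.39% to 1.46% in the other 5. It was also highest for *Rpl11* at a log2 CPM of 7.15 (6.60 to 6.79 in the others), for *Rpl22* at 7.84 (7.31 to 7.47) and for *Rps7* at 8.02 (7.42 to 7.57). Replicate 5 was lowest for *Rpl36a* at a log2 CPM of 5.07 (5.55 to 5.83 in the others) and for *Rps29* at 6.41 (6.85 to 7.03). Replicate 3 was lowest for *Rpl4* at 9.22 (9.38 to 9.46). Replicate 4 was highest for the difference between small and large subunit genes, at 0.015 on the log2 scale against -0.0052 to -0.0015.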

How the results depend on the processing

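No ribosomal protein gene passed an adjusted p of 0.05 for the genotype label or for cage under any alternative run, and for body weight some did only without replicate 3 labelled *Npr1*+/-. The counts with a log2 fold change below 0 (50 of 84) were 82 with cage as the only covariate, 29 with body weight as the only covariate and 77 without the 3 libraries rich in CT010467.1. At an unadjusted p under 0.05, higher genes were 0 with the label alone, with either covariate alone and without those 3 libraries (where 1.42% to 4.05% of all genes passed in either direction), and lower genes were 0 with body weight as the only covariate. Genes rising with weight at that p (4) were 0 with weight as the only covariate (3.04% of all genes rose), 2 without those 3 libraries (3.01%), 21 scaled by library size only (10.5%), and 7 with DESeq2 (7.19%), with limma-voom (5.67%), without a filter on low counts (4.14%) and thinned to the smallest library (5.67%). Without the 20 most abundant genes the shares were 1.94% and 2.06%. The median log2 fold change lay between -0.22 and 0.022 over the alternatives that left no mouse out. In the replicate block (median -0.22), replicates 7 to 10 labelled *Npr1*+/- have no counterpart and do not bear on that median.

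Log2 fold changes that turned were -0.095 for *Rpl31* with the label alone, -0.083 for *Rpl5*, -0.023 for *Rps29* and -0.18 for *Rpl31* with cage only, and -0.018 for *Rpl31* without the 3 libraries. Slopes that turned were 0.0083 for *Rps4l* and 0.0019 for *Rpl28* with weight only, and 0.0018 for *Rps4x* scaled by library size. The causes were not tested.

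Mice that share a number are separate animals. Their deviations correlated at 0.0779 on average over 6 pairs (lowest 0.0328), so the numbers do not pair them. Replicates 7 to 10 exist only under the label *Npr1*+/-, so a block by number gives them no part in its label and weight estimates. With the replicate block in place of cage, 81 genes were below 0 with a median of -0.22, 0 were higher and 4 lower at an unadjusted p under 0.05 (9.03% of all genes passed in either direction), 8 slopes were above 0 (0 at that p, where 1.09% of all genes rose), and *Rpl5* and *Rpl31* had log2 fold changes of -0.19 each (-0.191 and -0.193). The mean same-numbered difference in the *Rpl3l* to *Rpl3* log2 ratio under the block was 0.21 (exact sign-flip p = 0.219).

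With each mouse left out in turn, 12 to 78 genes were below 0, 0 to 1 were higher and 0 to 2 lower at an unadjusted p under 0.05, with a median between -0.12 and 0.12. For weight 0 to 34 genes passed the adjusted threshold, 0 to 60 rose at an unadjusted p under 0.05 and 57 to 83 slopes were above 0, and for cage 0 to 58 genes had such a p, the highest of these without replicate 3 labelled *Npr1*+/-. The shares lay between 1.29% and 1.39% and between 1.43% and 1.48%, and the ratio difference between 0.020 and 0.16. Log2 fold changes that turned reached -0.011 to 0.22 for *Rps29*, -0.033 to 0.23 for *Rpl31*, -0.53 to 0.11 for *Rps19bp1* and -0.69 to 0.24 for *Rpl34*. Slopes that turned reached -0.048 to 0.024 for *Rps4l*, -0.035 to 0.0028 for *Rpl3l*, -0.035 to 0.0049 for *Rpl28* and -0.025 to 0.019 for *Rps4x*.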
